A study of Mus musculus with 6 samples.

Results

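The immunoglobulin loci of the mouse genome were examined for regions called as bound by CTCF in thymic regulatory T cells. Peaks of 6 deposited lists were merged into 1 region wherever they overlapped by 1 bp, and every merged region that touched 1 of 3 windows was kept, whatever its calls. The windows, in mm39, were chromosome 12 from 113122000 to 116074000 for the heavy chain, chromosome 6 from 67432000 to 70804000 for kappa and chromosome 16 from 18745000 to 19180000 for lambda, each with 100 kb of flank on both sides of the locus. They held 215 of the 94951 regions, namely 124 in the heavy, 81 in the kappa and 10 in the lambda window.

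The lists came from CUT&RUN, in which an antibody tethers a nuclease to a bound protein so that the DNA beside it is cut out and sequenced. There were 3 libraries labelled WT and 3 labelled Cgas_KO, a knockout of the cytosolic DNA sensor cGAS, all from regulatory T cells of the thymus and each with 1 peak list. The stated aim was to profile CTCF binding with and without cGAS. Strain, age, sex, the knockout allele and the sort are not given in the labels, nor is whether replicates are separate animals, so every p-value reflects the spread among these libraries alone, which may be technical.

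CTCF is a zinc-finger protein that stops loop extrusion by cohesin and thereby anchors chromatin loops. The heavy and kappa loci hold long arrays of variable (V) segments at one end and the joining segments and constant regions at the other, and all immunoglobulin loci are assembled by recombination in developing B cells. In B cell progenitors, CTCF sites are known among the V segments and at the constant side of these loci, where they take part in loops that bring distant V segments near the recombination centre. A developing T cell assembles T cell receptor loci.

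The order of genes in RefSeq (GRCm38.p6) gave the orientation. Heavy constant regions, Igha to Ighm, lie at the low-coordinate end with Tmem121 as the nearest protein-coding neighbour, and 183 V segments reach towards Zfp386. In kappa the single constant region, Igkc, lies at the high-coordinate end next to Rpia, a pentose phosphate enzyme, and 162 V segments lie on its low-coordinate side. Lambda has 3 V segments, with Iglc1 on the side of Hira, a histone chaperone, and Olfr164, an odorant receptor gene, beyond the V segments. Its segments are interleaved, with Iglv1 between Iglc3 and Iglc4, so in lambda the constant and V sides stand only for the low- and high-coordinate sides of the window. An annotation and a genome of mm39 were not used here, so the exon or intron at each region was not analysed here and no sequence is printed.

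The lists held 27128 to 31707 peaks, and read depth is unknown because they give signal inside peaks only. Within a list, maximum signals came in whole multiples of a smallest unit, called a step here, and the height of a peak is its maximum signal counted in steps. Median heights ranged from 11 to 14 steps. A step was worth 0.190 to 0.212 signal units in WT and 0.117 to 0.12 in Cgas_KO, so a comparison of steps between genotypes is not one of deposited signal. Heights taken over the median height of the list and ranks, given with the genotype results, do not depend on the size of a step. Cgas_KO replicate 3 stood apart, with the most peaks, the narrowest (median 2569 bp) and the lowest median height. Neither the cell type label nor the Cgas label could be checked against these lists.

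Most immunoglobulin regions were called in a single list and few were called throughout. In the heavy window 92 of 124 regions (74.2%) were in 1 list, in kappa 65 of 81 (80.2%) and in lambda 7 of 10 (70%), while the share over all regions was 69.9%. Regions in all 6 lists numbered 4 in heavy (3.23%), 3 in kappa (3.70%) and 0 in lambda, beside 5.16% of all regions. Regions in 4 or more lists numbered 8 in heavy (6.45%), 8 in kappa (9.88%) and 0 in lambda, beside 11.6% of all regions. Single-list regions were low, with a median height of 11 steps in heavy and 10 in kappa and in lambda, and 11 over all single-list regions. Their tallest reached 26 steps in heavy, 19 in kappa and 12 in lambda.

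**Figure D1:**
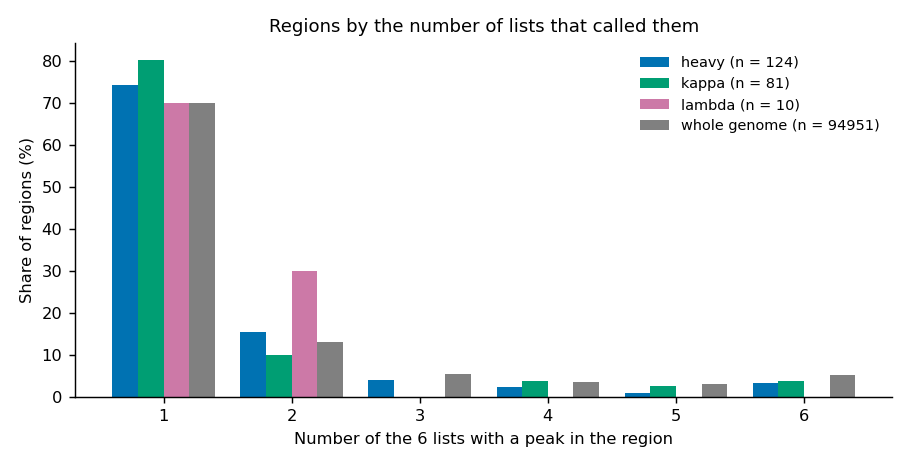
Share of regions (percent, vertical axis) by the number of the 6 lists with a peak in the region (horizontal axis), for the 3 windows and the whole genome. Single-list regions make up 70% to 80.2% of each window, and lambda has none in 3 or more lists.

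Regions in 4 or more lists were denser at the rims of the heavy and kappa windows, and lambda had none. The pooled lengths below include lambda. Of the 16 such regions 7 lay within the loci, some far inside such as heavy at 791.1 and 1522 kb and kappa at 2478 kb from the constant-side border. The constant-side flanks, 0.3 Mb in all, held 7 regions of 4 or more lists (23.3 per Mb), 1 of them with its midpoint just outside the window, and the V-side flanks, also 0.3 Mb, held 2 (6.67 per Mb). The loci between the flanks, 6.159 Mb together, held the other 7 (1.14 per Mb), beside 4.16 per Mb over the genome. For regions in all 6 lists the counts were 4, 2 and 1, or 13.3, 6.67 and 0.162 per Mb, beside 1.85 per Mb over the genome. Within the loci 154 of 187 regions (82.4%) were in a single list, against 6 of 19 in the constant-side flanks. Regions are not replicates, so these rates carry no test.

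**Figure D2:**
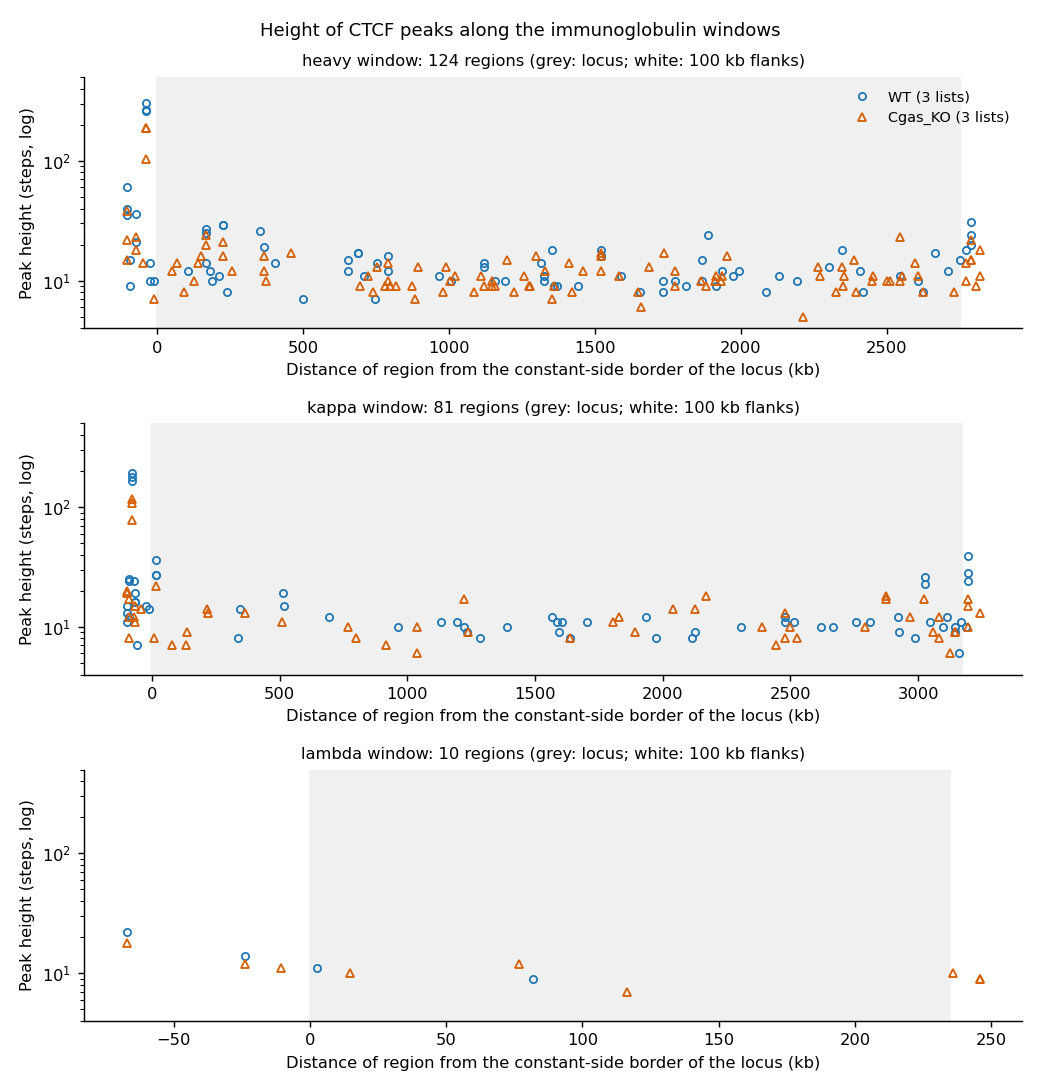
Height of each peak region (steps, log axis) against distance from the constant-side border of the locus (kb), 1 panel per window. Circles are WT and triangles Cgas_KO lists, the grey field is the locus and the white margins are the flanks. The tallest heavy region (103 to 307 steps) and the tallest kappa region (78 to 194 steps) both stand in the constant-side flank, while peaks within the loci reach at most 36 steps.

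The tallest immunoglobulin region was in the heavy constant-side flank, chromosome 12 from 113177222 to 113190603, with its midpoint at -38.1 kb from the border. It measured 307, 268 and 259 steps in WT replicates 1 to 3 and 188, 188 and 103 steps in Cgas_KO replicates 1 to 3. Every WT value lay above every Cgas_KO value. Taken over the list median, heights did so in 33.1% of the 4896 regions in all 6 lists. The figure was 72.6% among the 95 regions, this one included, at least as tall as the tallest kappa region. Shares for heights in steps are not given here. Each list called the tallest heavy region as a single peak 10034 to 12198 bp wide, and it ranked between 22 and 56 among all peaks of its list. It was 4.32 to 8.55 times as high as the next tallest region of the window. In 5 lists the highest signal lay between 113185943 and 113186017, and in WT replicate 3 it lay at 113183786 within the same peak. Among the 4896 regions in all 6 lists it was 32nd by median height.

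Its share of the signal of the heavy window was 44.4%, 54.4% and 50.6% in WT and 38.1%, 37.6% and 37.4% in Cgas_KO. The means were 49.8% ± 5.08 and 37.7% ± 0.363 (SD, n = 3), and the groups did not overlap (two-sided exact permutation p = 0.1, adjusted 0.2 over the 2 tallest regions). With 3 libraries against 3, 0.1 is the smallest p such a test can give. Shares of signal of regions elsewhere in the genome are not given here, so this gap is not shown to be particular to the region.

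The tallest kappa region had the corresponding place, chromosome 6 from 70776991 to 70787293 in the constant-side flank, at -78.1 kb. It measured 194, 164 and 178 steps in the WT lists and 117, 108 and 78 in the Cgas_KO lists, again without overlap. The highest signal of all 6 lists fell within 499 bp. It was 4.56 to 6.07 times as high as the next kappa region and 95th by median height among regions in all 6 lists. Its share of the window's signal was 32.3% ± 3.59 for WT and 28.7% ± 1.27 for Cgas_KO, with an adjusted p of 0.3 in the exact permutation test (SD, n = 3).

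The other regions called in all 6 lists were much lower. At the outer border of the heavy window, chromosome 12 from 113112846 to 113122431, the WT lists gave 40, 35 and 60 steps and the Cgas_KO lists 38, 22 and 15. The groups overlapped there, and only the end of this outermost region reaches into the window. In the heavy V-side flank, from 116008003 to 116016117, they were 24, 31 and 20 in WT and 22, 15 and 15 in Cgas_KO, which overlapped as well.

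The only region within a locus that all 6 lists called, chromosome 12 from 114723801 to 114763228, was low and wide. It measured 18, 16 and 16 steps in the WT lists and 17, 16 and 12 in the Cgas_KO lists. Its 39428 bp came from 20 peaks joined by overlap across lists, and the highest points of the lists were up to 24878 bp apart, so it does not stand for a shared position.

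Kappa had a pair of further regions in all 6 lists, 1 at each rim. The V-side one, chromosome 6 from 67506412 to 67510707, measured 28, 24 and 39 steps in the WT lists and 17, 15 and 10 in the Cgas_KO lists. Its groups did not overlap, and the highest points of the lists lay within 645 bp. The constant-side one, from 70788618 to 70795805, measured 25, 24 and 12 in WT and 17, 12 and 8 in Cgas_KO. Its groups overlapped, and its highest points spread over 4281 bp.

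Lambda had no region in more than 2 lists. In its constant-side flank the outermost region, chromosome 16 from 18775787 to 18779672, measured 22 steps in WT replicate 2 and 18 in Cgas_KO replicate 3, and the next, from 18817618 to 18824886, 14 in WT replicate 3 and 12 in Cgas_KO replicate 3. In the V-side flank the outermost region, from 19088630 to 19093091, measured 9 steps in Cgas_KO replicates 2 and 3. All 5 regions within the locus were in a single list, 7 to 12 steps high.

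Among the 9 regions in 4 or 5 lists, several held 1 position across lists. These were picked after their values had been seen. Just inside the kappa locus, 15.1 kb from the border, the region from 70684819 to 70693045 measured 36, 27 and 27 steps in WT and 22 in Cgas_KO replicate 2, with no peak in Cgas_KO replicates 1 and 3. Its highest points fell within 77 bp. In the heavy locus the region from 113386703 to 113391033, 166.9 kb inside, measured 27, 14 and 25 in WT and 24 and 20 in Cgas_KO replicates 1 and 2, within 323 bp. A neighbour from 113446445 to 113452561, 227.5 kb inside, measured 29 and 29 in WT replicates 1 and 2 and 16 and 21 in Cgas_KO replicates 2 and 3, within 295 bp. In the heavy flank the region from 113149564 to 113153139 measured 36 and 21 in WT replicates 2 and 3 and 18 and 23 in Cgas_KO replicates 2 and 3, within 122 bp.

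Over all members in 4 or more lists, 6 of 16 (37.5%) had the highest points of their lists within 500 bp, beside 38.5% of the 11012 such regions of the genome. The lists of the other 10 members placed their highest signal up to 24878 bp apart.

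**Figure D3:**
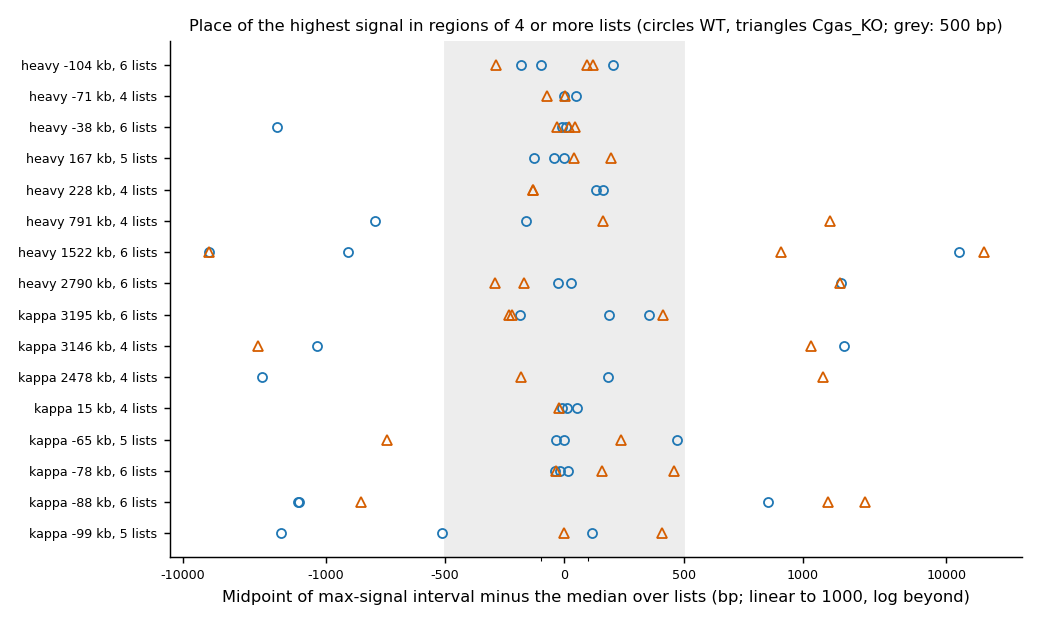
Place of the highest signal in each list (bp from the median over lists, linear near the centre and logarithmic farther out) for the 16 regions in 4 or more lists, named by distance of their midpoint from the constant-side border. Circles are WT and triangles Cgas_KO, and grey marks 500 bp on either side; the region at 15 kb in kappa is the tightest, within 77 bp.

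In every library the kappa and lambda windows held fewer peaks per Mb than the heavy window. The heavy window held 33, 27 and 25 peaks in WT and 34, 35 and 40 in Cgas_KO, or 8.47 to 13.6 per Mb. The kappa window held 16, 28 and 22 in WT and 17, 18 and 21 in Cgas_KO, or 4.74 to 8.30 per Mb. Lambda held 0, 1 and 3 peaks in WT and 1, 3 and 5 in Cgas_KO, or at most 11.5 per Mb. The rest of the genome held 10.2 to 12.0 per Mb.

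Heavy exceeded kappa in 6 of 6 libraries, by 4.92 ± 2.78 peaks per Mb (SD, n = 6; two-sided exact sign-flip permutation p = 0.0312, adjusted 0.0703 over 9 tests). It exceeded lambda in 6 of 6, by 5.97 ± 3.85 (exact permutation p = 0.0312, adjusted 0.0703). Kappa lay below the rest of the genome in 6 of 6 libraries, with a mean difference of -4.84 ± 1.36, and lambda did so with -5.89 ± 3.91 (exact permutation p = 0.0312, adjusted 0.0703 for each). Heavy differed from the rest by 0.0862 ± 1.5 (exact permutation p = 0.906, adjusted 0.906), above it in 4 libraries and below it in 2. Kappa and lambda differed by 1.05 ± 4.24, with 3 libraries on either side (exact permutation p = 0.562, adjusted 0.633). The smallest p of this test is 0.0312, and none of the 9 tests passed 0.05 after adjustment. It asks only whether a difference repeats over libraries. How many other windows of the genome lie as low is not given here, so no window is shown to be unusually sparse. When peaks below the median total signal of their list were dropped (keeping 50%), heavy exceeded kappa by 2.21 and kappa lay below the rest with a difference of -3.01 peaks per Mb.

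**Figure D4:**
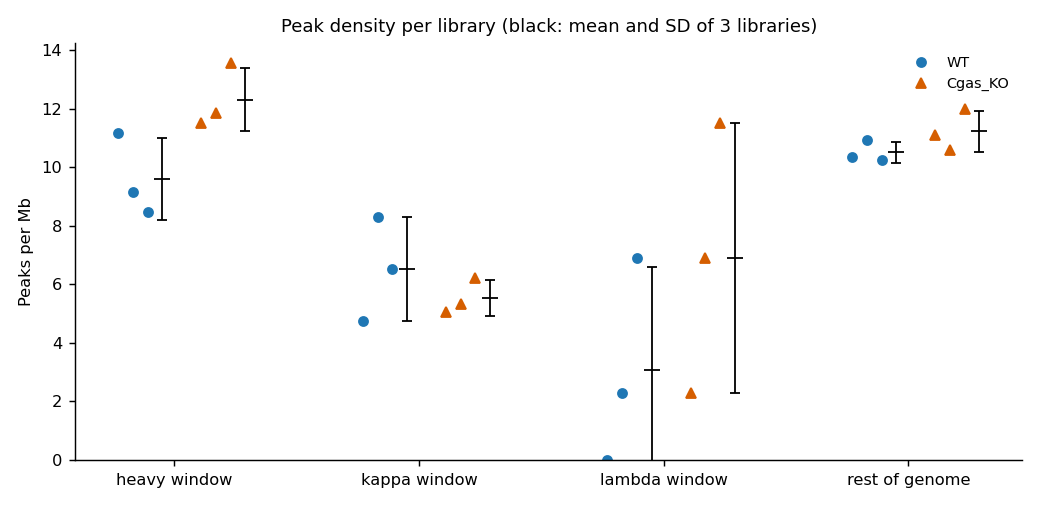
Peaks per Mb (vertical axis) in the 3 windows and the rest of the genome, 1 point per library, with the mean and SD of 3 libraries in black (the lower bar of WT in lambda ends at 0). All kappa points, 4.74 to 8.30, lie below the rest of the genome, and heavy points span 8.47 to 13.6.

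Chromosome next to the windows was denser. This comparison was added after the data were examined. The 1 Mb beyond the constant side held 41.8 ± 2.86 peaks per Mb at heavy, 24.3 ± 4.55 at lambda and 18 ± 5.06 at kappa (SD, n = 6). The 1 Mb beyond the V side held 14.7 ± 4.59 at kappa, 11.3 ± 2.16 at lambda and 10.7 ± 2.88 at heavy. Each of these except the heavy V side exceeded its window in 6 of 6 libraries (exact sign-flip permutation p = 0.0312, adjusted 0.0375 over these 6 tests and 0.0521 over all 15 within-library tests). The heavy V side differed by -0.286 and exceeded its window in 1 library (exact permutation p = 0.812, adjusted 0.812). Beyond the heavy constant side 14 of 87 regions (16.1%) were in all 6 lists, beside 5.16% of all regions. The share beyond the constant side was 11.5% at lambda and 1.79% at kappa. Beyond the V side it was 9.52% at kappa, 2.22% at lambda and 0% at heavy.

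The constant and V ends were compared over the outer 400 kb of the heavy and kappa windows and over the 217.5 kb on either side of the middle of lambda. Heavy constant ends held 8, 6 and 6 peaks in WT and 6 in each Cgas_KO list, against 3, 3 and 4 and then 6, 5 and 6 at the V end. The constant end was thus higher in 4 libraries and equal in 2, by a mean of 4.58 peaks per Mb (exact permutation p = 0.125, adjusted 0.188). In kappa the constant end held 6, 8 and 6 peaks in WT and 6, 6 and 7 in Cgas_KO, against 4, 6 and 6 and then 4, 5 and 5. It was higher in 5 libraries and equal in 1, by 3.75 peaks per Mb (exact permutation p = 0.0625, adjusted 0.113). The kappa difference depended on the size of the ends, at 13.3 peaks per Mb over the outer 200 kb (exact permutation, adjusted p = 0.0562) and 0.593 with the window cut into 3 equal parts (adjusted p = 0.522), and the heavy one was 3.33 and 1.69 (adjusted p = 0.562 and 0.522). In lambda the low-coordinate part was higher in 4 libraries, equal in 1 and lower in 1, by 5.36 (exact permutation p = 0.25, adjusted 0.321).

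The kappa direction turned once the flanks were left out. In the outer 400 kb of the kappa locus itself the constant end held 2, 3 and 1 peaks in WT and 2, 2 and 4 in Cgas_KO, and the V end 3, 6 and 4 and then 3, 3 and 5. The constant end was lower in 6 of 6 libraries, with a mean difference of -4.17 peaks per Mb (exact permutation p = 0.0312, adjusted 0.0703). In the heavy locus without flanks the difference was 1.67, with 3 libraries on either side (exact permutation p = 0.719, adjusted 0.719).

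The tallest region of a window carried most of the difference in signal between its ends. The heavy constant end held 44.8% to 63.8% of the window's signal and the V end 5.32% to 10.4%, without overlap. The kappa constant end held 47.9% to 63.2% and the V end 15.7% to 23.5%. With the tallest region left out, the heavy constant end held 11.8% to 21.8% of what remained and the V end 9.56% to 17.8%, and in kappa 26.1% to 42.2% and 22.2% to 34.4%, so that the ranges over libraries overlapped. Compared within each library, the kappa constant end still held more in all except WT replicate 3 (26.1% against 34.4%). The heavy constant end held more in all WT lists and Cgas_KO replicate 2, and less in Cgas_KO replicates 1 and 3. These remaining differences were not tested. The tallest peak of a list was 103 to 307 steps at the heavy constant end and 15 to 31 at the V end, and 78 to 194 and 12 to 39 in kappa. Regions in 2 or more lists were 7 of 20 at the heavy constant end and 6 of 15 at the V end, and 6 of 16 and 5 of 19 in kappa, or 26.3% to 40%, beside 30.1% of all regions.

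Of the 3 windows, heavy was the one in which peak density did not overlap between genotypes, and its test did not pass after adjustment. The density was 9.60 ± 1.41 peaks per Mb in WT and 12.3 ± 1.09 in Cgas_KO (SD, n = 3), and the lowest Cgas_KO library, 11.5, lay above the highest WT library, 11.2. The difference of 2.71 gave p = 0.1 in the exact permutation test, adjusted 0.72 over 9 genotype tests. Of 891 windows of the same length laid along the genome, 10.5% were higher in Cgas_KO without overlap. With every list cut to the length of the shortest, 27128 peaks, the difference was 0.903 (exact permutation p = 0.4), and after dropping peaks below the list's median total signal it was 1.13 (exact permutation p = 0.3). For kappa the densities were 6.52 ± 1.78 and 5.54 ± 0.617 (SD, n = 3; exact permutation p = 0.6, adjusted 0.771), and for lambda 3.07 ± 3.51 and 6.90 ± 4.60 (exact permutation p = 0.5, adjusted 0.75), WT first.

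Median height of a window's peaks over that of the whole list, and covered length over that of the genome, overlapped between genotypes in all 3 windows. The relative height was 0.927 ± 0.130 in WT and 0.898 ± 0.108 in Cgas_KO for heavy, and for kappa 0.898 ± 0.0603 and 0.881 ± 0.138 (SD, n = 3; exact permutation p = 0.7 and 0.9, adjusted 0.788 and 0.9). For lambda it was 1.27 over the WT libraries with a peak (n = 2) and 0.882 over the Cgas_KO libraries (exact permutation p = 0.3, adjusted 0.72). The relative covered length was 1.03 ± 0.167 and 1.15 ± 0.0881 for heavy, 0.609 ± 0.116 and 0.501 ± 0.0589 for kappa, and 0.280 ± 0.357 and 0.580 ± 0.391 for lambda (SD, n = 3; exact permutation p = 0.4, 0.3 and 0.4, adjusted 0.72 each).

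The constant-minus-V difference in heavy was 8.33 peaks per Mb for WT and 0.833 for Cgas_KO, which the exact permutation test gave p = 0.1 (adjusted 0.36 over 9 such contrasts). In kappa it was 3.33 and 4.17 (exact permutation p = 1, adjusted 1).

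No immunoglobulin region was called in all 3 lists of a genotype and in none of the other. Over the genome 0.377% of regions were WT-only and 0.33% Cgas_KO-only in this sense. Both genotypes called 23 of 124 heavy regions, 12 of 81 kappa regions and 2 of 10 lambda regions. Regions with peaks in WT lists alone numbered 38, 38 and 2, and in Cgas_KO lists alone 63, 31 and 6. As shares of a window, both genotypes called 18.5% of heavy, 14.8% of kappa and 20% of lambda regions, beside 23.8% of all regions. WT lists alone called 30.6%, 46.9% and 20%, beside 34.8%, and Cgas_KO lists alone 50.8%, 38.3% and 60%, beside 41.4%.

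In bins of 100 kb with at least 6 peaks over the 6 lists, 16 in heavy, 5 in kappa and 0 in lambda, none had genotypes that did not overlap. Over the 10105 such bins of the genome, 3.19% were higher and 1.64% lower in Cgas_KO without overlap.

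The height of the regions in all 6 lists, taken over the median height of the list, was lower in Cgas_KO without overlap in 3 of 7 members (42.9%), beside 33.1% of the 4896 such regions of the genome. It was higher without overlap in 0 members, beside 1.76%. The tallest heavy region stood at 20.8 ± 1.02 times the list median in WT and 12.4 ± 2.70 in Cgas_KO (SD, n = 3), a log2 ratio of -0.75. The tallest kappa region stood at 13.4 ± 0.674 and 7.92 ± 0.717, a log2 ratio of -0.76. The kappa V-side region stood at 2.28 ± 0.627 and 1.09 ± 0.162, a log2 ratio of -1.06. The log2 ratio had a median of -0.35 over all 4896 regions. There were 95 regions at least as tall as the tallest kappa region, both tallest members included. Of these, 69 (72.6%) were lower in Cgas_KO without overlap, and the median log2 ratio of the 95 was -0.75. The lower height of both tallest members was therefore shared by most regions of their height.

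**Figure D5:**
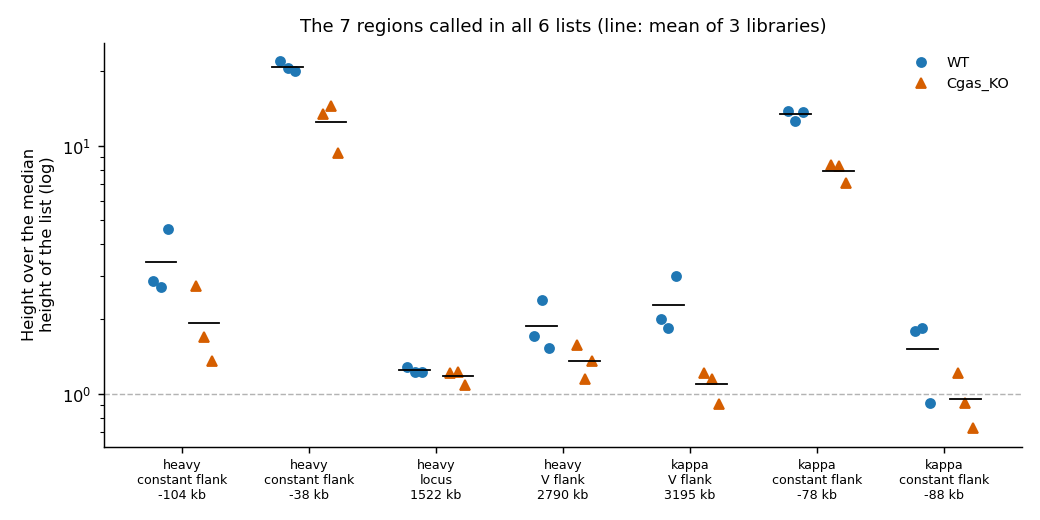
Height over the median height of the list (log axis) for the 7 regions in all 6 lists, named by window, place and distance of the midpoint from the constant-side border (kb). Points are libraries and lines the mean of 3; WT and Cgas_KO do not overlap at the regions at -38 kb in heavy and at 3195 and -78 kb in kappa.

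Ranks of height within a list, taken among the 4896 regions in all 6 lists, gave no call between the genotypes. They do not depend on scaling. The limma test on normal scores of ranks called 0 of 4896 regions (0%) at an adjusted p of 0.05, and 0 of 7 members. At an unadjusted p under 0.05 it had 5.58% of regions higher and 3.84% lower in Cgas_KO. Of the members 1 was among the lower ones, the kappa V-side region (score difference -1.21 ± 0.286 SE, limma adjusted p = 0.369). Adjusted p was 0.827 for the tallest heavy region and 0.977 for the tallest kappa region. The only member with a rise in rank was the wide heavy region within the locus (0.133 ± 0.177 SE, limma adjusted p = 0.833). On log2 heights in place of ranks, limma called 1 of 4896 regions and 0 of 7 members. These heights were centred on each library's median over the 4896 regions, not on the median of the whole list. The tallest heavy region differed by -0.456 on this scale, against -0.75 over the list median. At an unadjusted p under 0.05 limma then had 340 of the 4896 regions higher and 557 lower in Cgas_KO. The kappa V-side region and the tallest kappa region were among the lower ones (limma adjusted p = 0.170 and 0.270).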

How the data were processed

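CTCF CUT&RUN peak lists of 6 libraries, 3 WT and 3 Cgas_KO by their labels, were used, called per library. Bowtie2 and SEACR 1.3 were used per the submitters' processing notes, which list mm10 and mm39; the sequence names in the lists are those of mm39. The deposited values are signal, total and maximum per peak, as the authors made them. The names of the lists carry 0.01, non and stringent, whose use is not stated. Beyond these names, the sources used here do not give the control, threshold or scaling. Dividing maximum signal by the list's smallest unit (the step) gave whole numbers within 0.01 for 100% of peaks under 200 steps. The meaning of that unit is unknown, so heights were also ranked and taken over the list median.

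Positions count from 1. Peaks on chromosomes 1 to 19, X and Y were merged at 1 bp overlap. Peaks counted in a window by their midpoint. Density of the rest used the span from first to last peak per chromosome. Tests were two-sided exact permutation tests (20 assignments of 3 against 3, or 64 sign flips of within-library differences) and limma 3.58.1 (R 4.3.3), with Benjamini-Hochberg adjustment. The limma script and the merging were tested on simulated data. The rest ran in Python 3.11.15 with pandas 2.3.3, numpy 2.4.6, matplotlib 3.10.9 and scipy 1.17.1.

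Named regions were those in all 6 lists, those of 1 genotype only (none), the 2 smallest limma p per direction, the outermost regions and the widest gaps; others are said to be picked later. The windows, members and tests were chosen with earlier results of these data known. Alternatives were the 50% of highest total signal, lists matched to the shortest, no flanks, other end sizes, 50% coverage of a region, highest points within 200 bp, leaving out each library, 2 of 3 lists, a replicate block, and limma on total signal or on log2 heights. Added after seeing the data were the adjacent 1 Mb, windows of heavy length, flank against locus, shares of signal, distances between highest points, ends without the tallest region, and leaving out libraries in region counts and heights.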

Additional observations from a re-analysis of the deposited data

How the results depend on the processing

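The genotype differences in density and in covered length kept their direction under all 30 alternatives each, except that the lambda density difference was 0 with the 50% of highest total signal. No p of 0.05 could be reached in these designs, so the threshold says nothing about their stability. Their sizes depended on single libraries. The density difference ranged from 2.09 to 3.50 peaks per Mb in heavy, from -1.88 (without WT replicate 1) to -0.0989 (without WT replicate 2) in kappa and from 1.53 (without Cgas_KO replicate 3) to 6.13 (without Cgas_KO replicate 1) in lambda. The covered-length difference ranged from 0.0649 to 0.217, -0.171 to -0.0559 and 0.110 to 0.501. Of 86 alternatives for the within-library differences, 79 kept their direction. Differences in relative height between genotypes (Cgas_KO minus WT) changed sign: heavy to 0.0123 and lambda to 0.00572 in the 50% of highest total signal, and kappa to 0.0405 and lambda to 0.0472 without flanks. Leaving out each library in turn gave -0.0793 to 0.0466 for heavy, -0.0964 to 0.0300 for kappa and -0.810 to 0.0358 for lambda. The excess of heavy over the rest of the genome became -0.805 with the 50% of highest signal, -0.199 with lists matched to the shortest and -0.876 without flanks. It ranged from -0.211 to 0.460 with each library left out. The kappa constant end fell below the V end without flanks (-4.17).

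Counts of shared regions depended on what counted as shared. Regions in all 6 lists fell to 1 in heavy and 0 in kappa at 50% coverage, to 0 and 0 with highest points within 200 bp, and to 1 and 0 without flanks, and kappa had 1 in the 50% of highest signal. At 50% coverage such regions of the whole genome fell as well, from 4896 to 608. Genome counts under the other settings are not given here. Regions of 1 genotype alone numbered 9 in heavy, 4 in kappa and 1 in lambda with 2 of 3 lists (7.26%, 4.94% and 10% of regions, beside 6.28% of all regions), and 1 in kappa with the 50% of highest signal. With each library left out they ranged from 0 to 3 in heavy, 0 to 2 in kappa and 0 to 1 in lambda. Leaving out a library eases the rule, because fewer lists must hold or lack a peak. Shares of all regions are not given here for these counts or for the 50% of highest signal. Of the 21 bins 1 did not overlap when covered length replaced peak number, beside 11.1% of 10105 bins of the genome.

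Height deviations of same-numbered WT and Cgas_KO replicates had correlations of -0.0129, -0.0169 and -0.0148, beside -0.00261 to 0.0171 for differently numbered ones. Heights thus gave no sign of pairing, which does not settle whether the numbers mark libraries made together. With the replicate block, the heavy density difference of 2.71 had exact permutation p = 0.25, the smallest that 3 pairs allow, and limma called 0 members (lowest adjusted p = 0.571). Depth is unknown, so no interval for counting error was given.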

Other observations

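Each window held stretches with no peak in any list. Gaps elsewhere in the genome are not given here, so these lengths are not shown to be unusual. The widest gap between neighbouring regions was 148.5 kb in heavy (chromosome 12 from 113725111 to 113873601), 171.7 kb in kappa (chromosome 6 from 70012007 to 70183754) and 116.7 kb in lambda (chromosome 16 from 18962691 to 19079394). Counting regions in 4 or more lists, the widest gap was 1245 kb in heavy, from 114763229 to 116008002, and 2455 kb in kappa, from 68229684 to 70684818. The outermost heavy region on the V side, from 116038681 to 116042573, was called in Cgas_KO replicates 1 and 2 at 18 and 11 steps. The outermost kappa regions, from 67459971 to 67465036 and from 70798169 to 70807698, were called in 1 and 5 lists.

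Of the peaks in a window, the share that fell in a region of 2 or more lists had a median of 50.8% in heavy (40% to 70.4%), 47.9% in kappa (35.7% to 62.5%) and 33.3% in lambda (0% to 100% over 5 libraries), beside 61.8% in the rest of the genome (56.3% to 64.6%).

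Regions in at least 2 lists of 1 genotype and none of the other numbered 7 for WT and 2 for Cgas_KO in heavy, 1 and 3 in kappa, and 0 and 1 in lambda. As shares these were 5.65% and 1.61% of heavy and 1.23% and 3.70% of kappa regions, beside 3.02% and 3.26% of all regions. The tallest of them, picked after its values were seen, was in the kappa locus from 67673519 to 67677561, at 26 steps in WT replicate 1 and 23 in WT replicate 3. With no peak in WT replicate 2 and 3 Cgas_KO lists it shows no more than which lists called it.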
